A study of Homo sapiens with 18 samples.

Results

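The AP-1 family was followed in myeloma cells through 10 of its genes, JUN, JUNB, JUND, FOS, FOSB, FOSL1, FOSL2, ATF3, BATF and BATF3. They were taken by gene symbol, with earlier results of these data known, and are 10 of the 43735 genes in the deposited count table. All 10 members passed the filter on low counts and are among the 14281 genes tested. Libraries were made from 2 human multiple myeloma cell lines, the glucocorticoid-sensitive MM1S and its glucocorticoid-resistant counterpart MM1R. Cells of each line were untreated, were exposed to 5 µM RSL3 for 3 h, or received 2 µM ferrostatin-1 (Fer-1) for 2 h before the same RSL3 treatment. RSL3 is a ferroptosis inducer that acts on the lipid peroxide-reducing enzyme GPX4, and Fer-1 traps the radicals that carry lipid peroxidation. Each of the 6 groups holds 3 libraries, one per passage (4, 6 and 7 for MM1R, 16, 22 and 23 for MM1S), and every passage holds all 3 treatments. No group received Fer-1 alone, so an effect of Fer-1 by itself was not measured. Each line is a single established line, and its replicates are passages of that line, so p-values measure the spread between passages.

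AP-1 is a family of basic leucine zipper proteins that bind DNA as dimers. JUN proteins pair with each other or with FOS proteins, FOS proteins need a JUN partner, and ATF3 and the BATF proteins pair with JUN proteins as well. Many members are immediate early or stress-induced genes: their transcripts are short-lived, and their levels rise within minutes to hours after growth factors, oxidants or protein damage, in large part through the JNK, p38 and ERK kinases. In lymphoid cells, JUN and FOS proteins are known as regulators of differentiation and survival, and BATF and BATF3 for their work with IRF4, a factor on which plasma cells depend.

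Proximal promoters are shown for members whose responses are set side by side. The sequences are the 250 bases before the transcription start given by RefSeq, placed on hg19 by an exact and unique match, and they are written 5′ to 3′ on the strand of the gene. Of the 10 members, 8 had a promoter entry. The 3 JUN genes, each made of 1 exon, and FOS are shown, as paralogs and their classical partner. JUN spans chr1:59242517-59249720 on the minus strand with its window at chr1:59249720-59249969, JUNB chr19:12902300-12904129 on the plus strand with its window at chr19:12902050-12902299, JUND chr19:18390504-18392432 on the minus strand with its window at chr19:18392433-18392682, and FOS chr14:75745529-75748933 on the plus strand with its window at chr14:75745281-75745530. Capitals mark exact matches, on either strand, to the motifs TGACTCA (the AP-1 site), TGACGTCA (the cAMP response element), TGACATCA (its variant known from the JUN promoter), TGATGCAA (an element of ATF4 and C/EBP dimers), CCAAT (the site of NF-Y) and the CArG box, the site of SRF. TATAAA (the core promoter element of TBP) was sought and marked on the strand of the gene only.
JUN: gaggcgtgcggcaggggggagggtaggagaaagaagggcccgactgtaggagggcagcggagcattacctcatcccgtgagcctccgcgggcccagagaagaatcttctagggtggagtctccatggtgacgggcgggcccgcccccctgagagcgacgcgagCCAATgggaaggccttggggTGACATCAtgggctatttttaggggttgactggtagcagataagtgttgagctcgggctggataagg
JUNB: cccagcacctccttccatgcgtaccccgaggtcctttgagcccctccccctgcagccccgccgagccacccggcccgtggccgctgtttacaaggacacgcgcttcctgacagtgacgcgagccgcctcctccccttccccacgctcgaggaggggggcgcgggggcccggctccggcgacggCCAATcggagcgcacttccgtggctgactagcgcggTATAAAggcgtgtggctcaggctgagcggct
JUND: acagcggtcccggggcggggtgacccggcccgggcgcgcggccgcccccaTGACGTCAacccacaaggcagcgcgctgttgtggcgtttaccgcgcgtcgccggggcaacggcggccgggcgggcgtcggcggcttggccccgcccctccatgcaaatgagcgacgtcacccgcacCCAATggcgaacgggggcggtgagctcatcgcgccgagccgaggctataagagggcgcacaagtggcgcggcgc
FOS: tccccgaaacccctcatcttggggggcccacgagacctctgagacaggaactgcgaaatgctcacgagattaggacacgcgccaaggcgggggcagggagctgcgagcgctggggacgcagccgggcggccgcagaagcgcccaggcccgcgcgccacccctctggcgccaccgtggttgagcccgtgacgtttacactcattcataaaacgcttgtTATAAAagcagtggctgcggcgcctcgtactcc

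The JUN window held TGACATCA from 67 to 60 bases before the start and CCAAT from 87 to 83 bases before it. The JUND window held TGACGTCA, 200 to 193 bases before the start, with CCAAT 74 to 70 bases before it. JUNB had CCAAT 67 to 63 bases and TATAAA 31 to 26 bases before its start, with neither of the TGACATCA and TGACGTCA letters. FOS and FOSB each had TATAAA alone, 33 to 28 and 30 to 25 bases before the start, and the windows of FOSL2 (chr2:28615475-28615724) and BATF (chr14:75988562-75988811) had no match to any of the motifs. ATF3 has 2 windows in RefSeq: the one at chr1:212738499-212738748 held TGACATCA 123 to 116 bases and CCAAT 25 to 21 bases before its end, and the one at chr1:212788110-212788359 held TATAAA 230 to 225 bases before its end. Neither lies at the start of the reference transcript used for length. Over the windows of all 35116 RefSeq starts, TGACATCA occurred in 2.37%, TGACGTCA in 1.65%, TGACTCA in 4.2%, TGATGCAA in 0.772%, CCAAT in 32% and TATAAA in 6.8%, and the CArG box in 1.16%. These matches describe letters in a window and do not show that a factor was bound.

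Total counts were 17635438 to 19368343 per library, so depth was even. Levels are given in CPM (counts scaled to library size with TMM factors). The 10 plasma cell markers were all tested and together made 9730 to 19100 CPM in every library, whereas those of B cells (0.209 to 4.84), T and NK cells (3.42 to 11.5, with CD3G and NKG7 at 0), monocytes (18.2 to 33) and erythroid cells (3.45 to 12.7) were low. NR3C1, the glucocorticoid receptor, measured 14.4 ± 0.526 CPM in untreated MM1R and 113 ± 33.9 CPM in untreated MM1S cells (SD, n = 3). In 1 library, MM1R Fer-1 + RSL3 replicate 2 (passage 6), 13 genes that otherwise mark MM1S stood at a median of 49.3% of the way from the MM1R to the MM1S level, where the other 17 libraries lay between -0.442% and 0.215% of the other line's level, and NR3C1 was at 50.2 CPM. This marker rule was set after the values had been seen. This library went against its label in part, and the calls and shares that rest on it are given without it as well.

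RSL3 raised JUN, ATF3, FOSL2 and JUND. Averaged over both lines, the fitted rise was 19.8-fold for JUN (log2 fold change 4.31 ± 0.59 SE, FDR 0.000231), 19.9-fold for ATF3 (4.32 ± 0.60, FDR 0.000249), 13.1-fold for FOSL2 (3.72 ± 0.67, FDR 0.00171) and 3.37-fold for JUND (1.75 ± 0.35, FDR 0.00324), with FOSB as the fifth member called (8.39-fold, 3.07 ± 0.95, FDR 0.0388). A call means that the FDR, the Benjamini-Hochberg adjusted p of edgeR's quasi-likelihood test, was under 0.05 with more than 1 unit of log2 fold change, and 2.79% of all tested genes were called higher in this comparison. Of the members, 5 of 10 rose, 0 fell, and the median log2 fold change was 1.66, against -0.000133 over all genes tested. JUN, ATF3, FOSL2 and JUND were higher with RSL3 in 6 of 6 passages, and these 4 members were called in each of the 24 fits that left out a library or a whole passage. FOSB was called in 9 of the 18 fits without a library and in 1 of the 6 without a passage, with a log2 fold change of 0.86 (FDR 0.494) without MM1S RSL3 replicate 1, and it was higher in 5 of 6 passages. In RNA from a whole culture, a higher level per cell and a larger share of responding cells cannot be told apart.

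**Figure D1:**
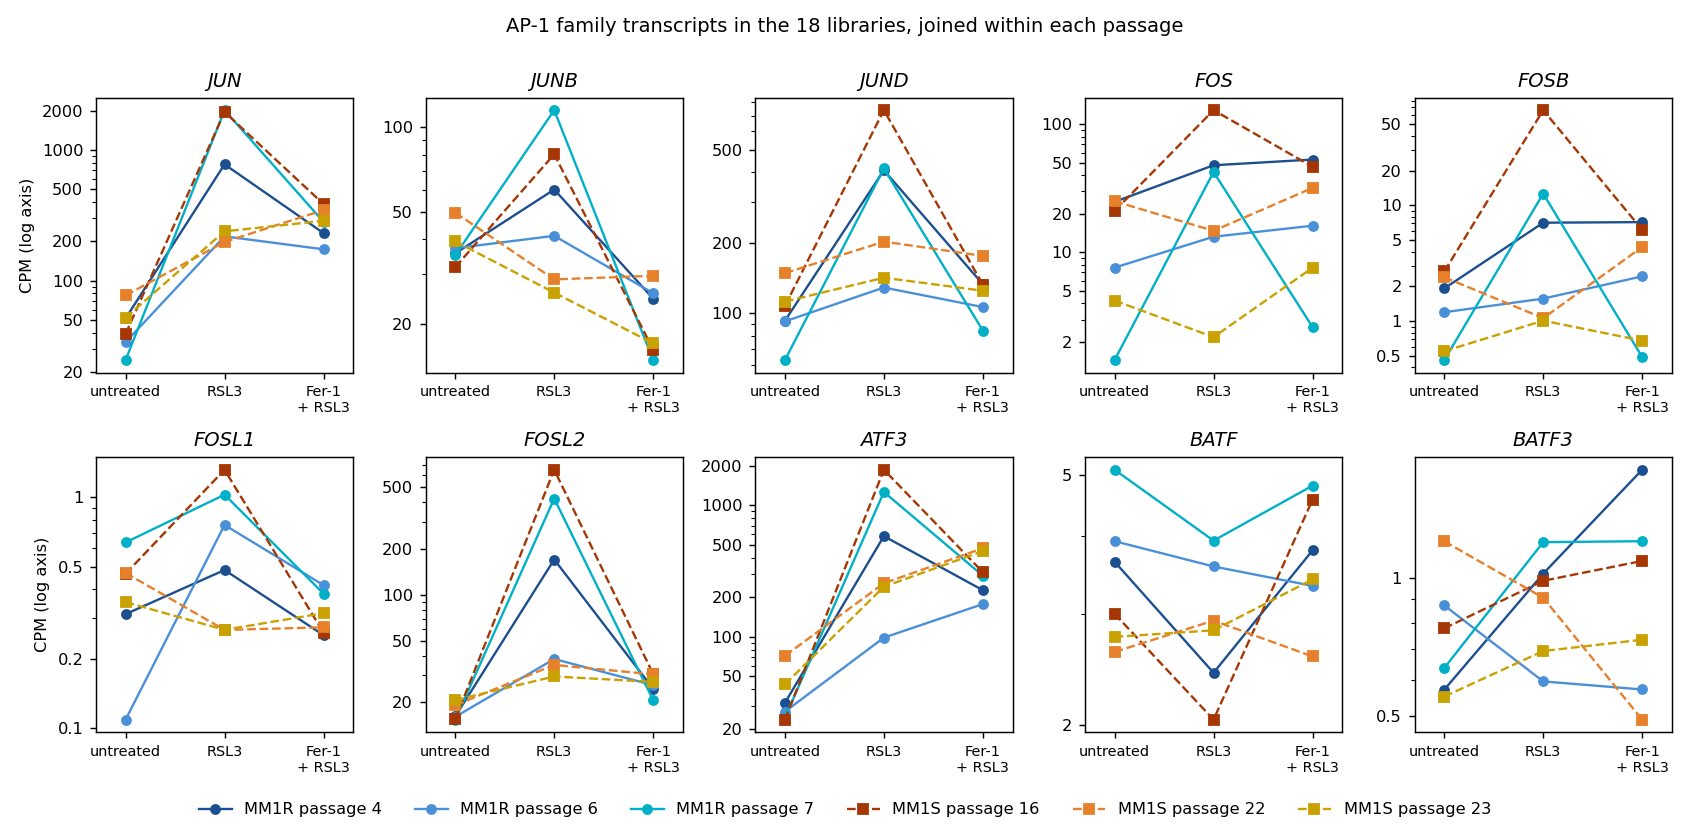
CPM (log axis, own scale per gene) of the 10 AP-1 genes without treatment, with RSL3 and with Fer-1 before RSL3; each line joins the 3 libraries of 1 passage, solid with circles for MM1R and dashed with squares for MM1S. JUN and ATF3 climbed with RSL3 in all 6 passages and farthest in MM1R passage 7 and MM1S passage 16, while BATF stayed between 2.04 and 5.1 CPM.

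Within the JUN genes, JUN itself, the founding member and the main target of JNK, showed the widest response. In untreated MM1R cells, JUN measured 51.4, 33.8 and 24.6 CPM at passages 4, 6 and 7, and with RSL3 779, 218 and 2027 CPM. In untreated MM1S cells, it measured 39.1, 77.1 and 52.1 CPM at passages 16, 22 and 23, and with RSL3 1963, 198 and 239 CPM. Every RSL3 library lay above every untreated library of its line, but the size of the rise differed widely, from 2.57-fold at MM1S passage 22 to 82.3-fold at MM1R passage 7. The fitted rise was 27.5-fold in MM1R (log2 fold change 4.78 ± 0.85 SE, FDR 0.00773) and 14.3-fold in MM1S cells (3.83 ± 0.81, FDR 0.0177).

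JUND, which is abundant in resting cells of many types, rose less than JUN. In MM1R cells it went from 92.6, 92.1 and 62.8 CPM to 409, 129 and 416 CPM with RSL3 at passages 4, 6 and 7. In MM1S cells it went from 107, 148 and 112 CPM to 739, 202 and 142 CPM at passages 16, 22 and 23. The groups were apart in MM1R cells and overlapped in MM1S cells, where passages 22 and 23 differed by 1.37-fold and 1.27-fold. The rise of 3.85-fold passed the test in MM1R (log2 fold change 1.94 ± 0.50, FDR 0.0406), and the 2.95-fold difference in MM1S did not (1.56 ± 0.49, FDR 0.0849).

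JUNB, often an antagonist of JUN in growth control, did not pass the test with RSL3 in either line. Its untreated levels were tight in MM1R cells at 35.6, 37.1 and 35.1 CPM, against 60.1, 41.1 and 115 CPM with RSL3, all above the untreated libraries (log2 fold change 1.00 ± 0.41, FDR 0.192). In MM1S cells, JUNB went from 31.8 to 80.2 CPM at passage 16 but from 49.7 to 28.8 CPM at passage 22 and from 39.2 to 25.8 CPM at passage 23, so that its direction differed between passages (0.15 ± 0.40, FDR 0.879). JUNB shares 259 exonic bases with HOOK2 on the opposite strand, and the use of strand in counting is not given in the sources used here. HOOK2 stood at 6.28 to 16.6 CPM in all libraries.

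Set side by side within a passage, the 3 JUN genes kept 1 order of response. The RSL3 response, the difference in log2 CPM between the RSL3 and the untreated library, was larger for JUN than for JUND by 2.21 ± 0.94 (SD, 6 passages), larger for JUN than for JUNB by 3.27 ± 1.00, and larger for JUND than for JUNB by 1.06 ± 0.41, in 6 of 6 passages each. An exact sign-flip permutation test over the 6 passages gave p = 0.03125 for each of these, the smallest value the design allows, and an adjusted p of 0.0547 over the 7 pairs compared, so none passed the adjustment. The pairs were chosen after the values had been seen. ATF3 and JUN, by contrast, differed by 0.03 ± 0.62 with ATF3 ahead in 4 of 6 passages (exact permutation p = 0.938, adjusted p = 0.938), which does not show that they respond alike.

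ATF3, a stress-induced repressor and activator induced by both the integrated stress response and JNK signalling, rose in both lines. In MM1R cells it stood at 31.5, 27 and 24.3 CPM without treatment and at 582, 98.5 and 1259 CPM with RSL3. In MM1S cells it stood at 23.5, 71.7 and 43.5 CPM without treatment and at 1858, 255 and 240 CPM with RSL3. The groups did not overlap in either line, and the lowest gain of any passage was 3.56-fold. The fitted rise was 23.4-fold in MM1R (log2 fold change 4.55 ± 0.85, FDR 0.00992) and 17-fold in MM1S cells (4.08 ± 0.83, FDR 0.0145).

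Among the FOS genes, FOSL2, which encodes the FOS-related protein FRA-2, was the only one called within a line. Without treatment it was nearly constant, with 16.1, 16 and 15.4 CPM in MM1R and 15.4, 19.1 and 20.6 CPM in MM1S. With RSL3 it reached 170, 38.1 and 423 CPM in MM1R and 653, 34.9 and 29.3 CPM in MM1S cells, above every untreated library of the line. The fitted rise was 13.3-fold in MM1R (log2 fold change 3.73 ± 0.95, FDR 0.0407) and 13-fold in MM1S cells (3.70 ± 0.95, FDR 0.0403). With the passage as a block, FOSL2 in MM1S cells was no longer called (2.60 ± 0.99, FDR 0.0949), while 2.21% of all tested genes were called higher in that fit.

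FOS, the classical immediate early gene, and its close relative FOSB had no common untreated level. FOS measured 24.8, 7.63 and 1.45 CPM in untreated MM1R and 21.1, 25.1 and 4.22 CPM in untreated MM1S cells, a 17.15-fold and a 5.95-fold range, where the median tested gene ranged 1.32-fold and 1.25-fold. With RSL3, FOS measured 47.9, 13.3 and 42.4 CPM in MM1R and 129, 14.8 and 2.19 CPM in MM1S cells. It was higher than untreated in 4 of 6 passages and lower at MM1S passages 22 and 23, and it did not pass the test in MM1R (log2 fold change 1.60 ± 1.199, FDR 0.526) or in MM1S cells (1.53 ± 1.18, FDR 0.52). FOSB was scarcer, from 0.463 to 2.69 CPM without treatment, and reached 7.1, 1.57 and 12.6 CPM with RSL3 in MM1R and 66.4, 1.07 and 1.01 CPM in MM1S cells. The FOSB differences of 2.55 ± 1.37 in MM1R (FDR 0.343) and 3.59 ± 1.34 in MM1S cells (FDR 0.149) did not pass the test in either line alone. FOSL2 exceeded FOS in its response within all 6 passages, by 1.46 ± 1.09 (exact sign-flip permutation p = 0.03125, adjusted p = 0.0547). FOSL2 and FOSB (0.88 ± 0.81, 5 of 6 passages, exact permutation p = 0.0625, adjusted p = 0.0875) and FOSB and FOS (0.58 ± 1.08, 3 of 6, p = 0.281, adjusted p = 0.328) did not pass the exact test.

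The remaining members were low. FOSL1, which encodes FRA-1, had 2 to 20 counts per library (0.109 to 1.31 CPM), and BATF3 had 9 to 34 counts (0.492 to 1.72 CPM). BATF was detected at 2.04 to 5.1 CPM. edgeR called none of these 3 genes in the 10 comparisons made.

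The counts of calls by line were 4 of 10 members in MM1R (JUN, ATF3, FOSL2 and JUND; 1.06% of tested genes called higher) and 3 of 10 in MM1S cells (ATF3, JUN and FOSL2; 1.35%), with 0 members lower. All RSL3 libraries lay above all untreated libraries for 5 members in MM1R (JUN, JUNB, JUND, FOSL2 and ATF3, where 13.5% of tested genes did so) and for JUN, FOSL2 and ATF3 in MM1S cells (12.6%). The difference between MM1R and MM1S in the response to RSL3 was called for 0 members and 0% of genes, with 0 members and 222 genes at an unadjusted p under 0.05 and 0 calls by DESeq2. For JUN, the response was 0.95 larger in MM1R, with a 95% interval from -1.31 to 3.21 on the log2 scale, and for ATF3 0.46 larger (-1.82 to 2.75), so that sizeable differences between the lines in either direction lie within these intervals. Without treatment, 0 members were called between the lines (4.64% of genes were called in either direction, and DESeq2 called 0 members), and 1 member, BATF, had an unadjusted p under 0.05 (0.59 higher in MM1R on the log2 scale, FDR 0.154).

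**Figure D2:**
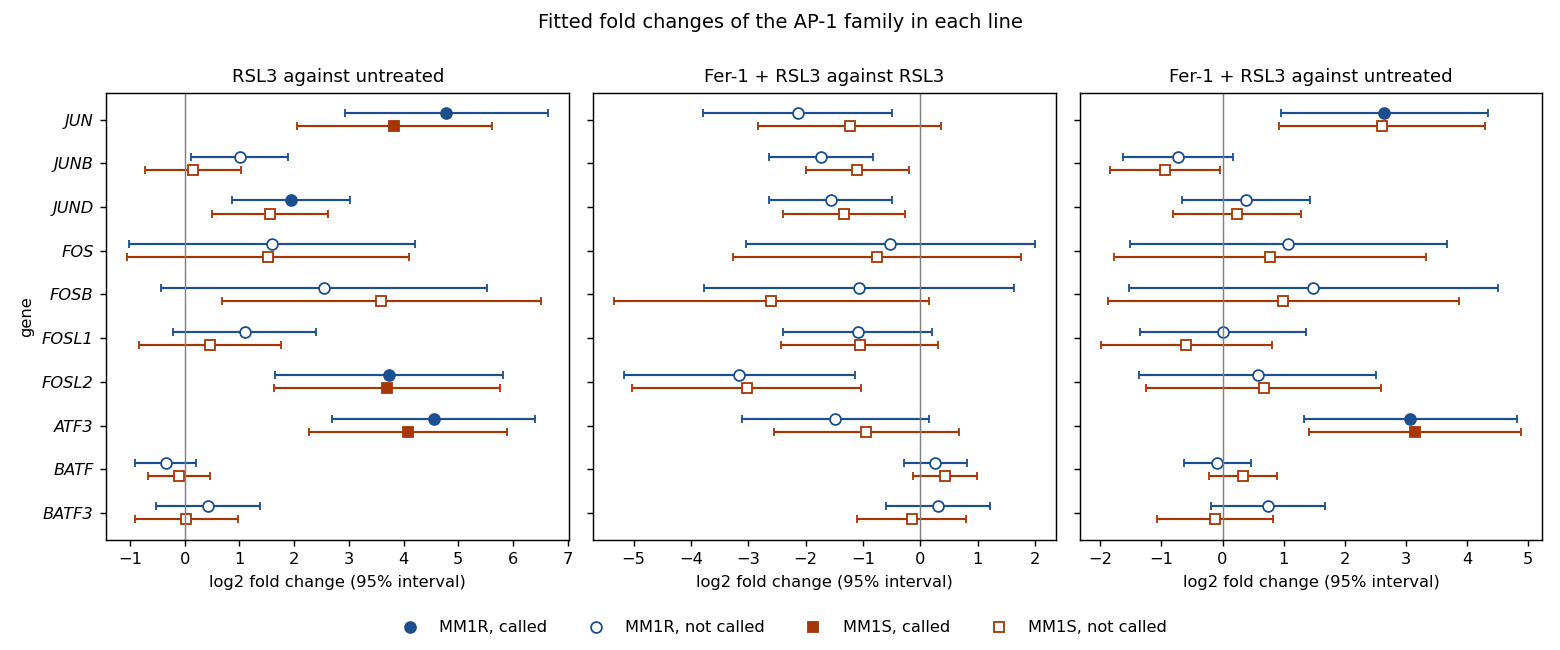
Fitted log2 fold changes (x axis) with 95% intervals for the 10 AP-1 genes (y axis) in MM1R (blue circles) and MM1S (brown squares) for the 3 treatment comparisons; filled symbols mark called genes. With RSL3, JUN, ATF3 and FOSL2 were called in both lines, and between Fer-1 + RSL3 and RSL3 no gene was.

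The response was highest in 1 library of each line. MM1R RSL3 replicate 3 (passage 7) and MM1S RSL3 replicate 1 (passage 16) were each the highest of their group for 9 of 10 members, where they were so for 31.3% and 45% of all tested genes. In the latter, the 5 fibroblast and stromal markers summed to 19.7 CPM, against 0.502 to 3.93 CPM in the other libraries. Only 1 of the 5, COL1A1, passed the filter on low counts, and COL3A1 was at 0 throughout. The size factor of MM1S RSL3 replicate 1 was the lowest at 0.834. The part of the marker sum and of the size factor in the result was not tested. Without MM1S RSL3 replicate 1, the log2 fold change of ATF3 in MM1S cells was 2.43 (FDR 0.0733), that of JUN 1.97 (FDR 0.106) and that of FOSL2 0.81 (FDR 0.614), and 0 members were called. Leaving out MM1S untreated replicate 1 or 3 gave 0 calls as well, and leaving out replicate 2 left ATF3. Without all libraries of MM1S passage 16 or 22, 0 members were called in MM1S cells. Without MM1R RSL3 replicate 3, JUN (3.77, FDR 0.0286) and ATF3 (3.63, FDR 0.0348) remained called in MM1R cells and FOSL2 (2.72, FDR 0.153) and JUND (1.71, FDR 0.122) did not. Leaving out any 1 untreated MM1R library left JUN alone, and JUN was called in MM1R in all 18 fits that left out 1 library, but 0 members were called there without all libraries of passage 4 or of passage 7. MM1R Fer-1 + RSL3 replicate 2 is in neither group compared here but enters the filter, the scaling and the spread, and 14646 genes were tested without it. In that fit JUN and ATF3 remained called in MM1R and FOSL2 and JUND did not (FDR 0.0531 for each). FOSL2 lost its call in MM1S cells too (3.70, FDR 0.052). Such losses are not particular to that library. FOSL2 and JUND in MM1R and FOSL2 in MM1S were each called in 6 of the 18 fits that left out 1 library.

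The levels with Fer-1 are set beside those with RSL3 alone. The Fer-1 library of MM1R passage 6 is the one that went against its label in part. A high RSL3 library makes both the rise over untreated and the difference with Fer-1 larger, so the values of these comparisons are not independent. At MM1R passages 4, 6 and 7, JUN with Fer-1 and RSL3 measured 231.5, 174 and 282 CPM, which is 29.7, 79.6 and 13.9% of its RSL3 level. At MM1S passages 16, 22 and 23 it measured 386, 347 and 287 CPM, or 19.7, 175.5 and 120% of its RSL3 level. With Fer-1 the libraries of a line lay within 1.62-fold and 1.35-fold of each other, where the RSL3 libraries ranged 9.28-fold and 9.92-fold. ATF3 had 226, 177 and 291 CPM in MM1R and 309.5, 471 and 448 CPM in MM1S cells, and was lower than with RSL3 alone in 3 of 6 passages and at 179.8, 184.7 and 186.5% of its RSL3 level in the others.

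FOSL2 and JUND were lower with Fer-1 and RSL3 than with RSL3 alone in 6 of 6 passages. FOSL2 measured 24.4, 25.7 and 20.6 CPM in MM1R and 30.4, 30.3 and 27.1 CPM in MM1S cells, 1.31 to 1.97 times the untreated level of its passage, and JUND measured 133, 106 and 84.1 CPM and 132, 176 and 125 CPM. JUNB measured 24.6, 25.7 and 14.9 CPM in MM1R and 16.2, 29.6 and 17 CPM in MM1S cells, below RSL3 alone in 5 of 6 passages and below untreated in 6 of 6. FOS and FOSB, in turn, were above untreated in 6 of 6 passages and below RSL3 alone in 2 and 3 of them. All these counts include MM1R passage 6, whose Fer-1 library went against its label in part.

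**Figure D3:**
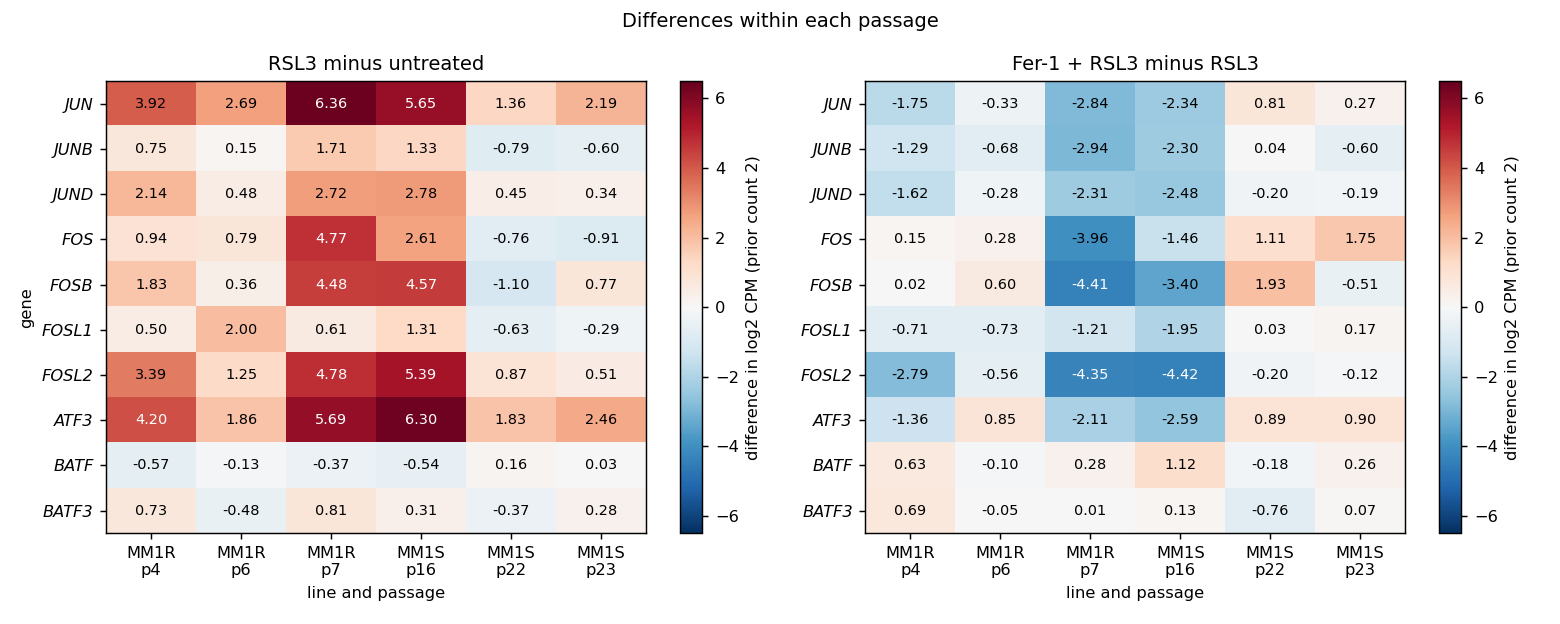
Differences in log2 CPM (prior count 2) within each passage, RSL3 minus untreated on the left and Fer-1 + RSL3 minus RSL3 on the right, for the 10 AP-1 genes (rows) and the 6 passages (columns, p for passage); red is higher and blue lower. FOSL2 rose by 4.78 and 5.39 at MM1R passage 7 and MM1S passage 16 and was lower with Fer-1 by -4.35 and -4.42 there, while at MM1S passages 22 and 23 its differences with Fer-1 were -0.20 and -0.12.

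No member was called between Fer-1 + RSL3 and RSL3 alone in either line, where 0% of all genes were called lower in MM1R and 0% in MM1S cells, and 881 and 821 genes had an unadjusted p under 0.05. Among the members, 4 in MM1R (JUN, JUNB, JUND and FOSL2) and 3 in MM1S cells (JUNB, JUND and FOSL2) had an unadjusted p under 0.05, and DESeq2 called JUNB in MM1R (-1.74, FDR 0.0493; 0.105% of genes called lower) and 0 members in MM1S cells. Averaged over the lines, edgeR called 0 members (6 with an unadjusted p under 0.05) and 0.056% of genes lower, with FOSL2 at -3.09 ± 0.65 (FDR 0.0616), JUNB at -1.41 ± 0.29 (FDR 0.0616), JUND at -1.44 ± 0.35 (FDR 0.0937), JUN at -1.68 ± 0.53 (FDR 0.204) and ATF3 at -1.21 ± 0.52 (FDR 0.347). With the passage as a block, JUNB was called in this comparison (-1.35 ± 0.31, FDR 0.0436; 0.252% of genes called lower), and DESeq2 called JUNB, JUND and FOSL2 (0.364%). Fer-1 libraries were below all RSL3 libraries of the line for JUNB, FOSL1 and FOSL2 in MM1R (6.44% of genes) and for 0 members in MM1S cells (4.17%). Without MM1S RSL3 replicate 1, the differences in MM1S cells were 0.64 for JUN and 0.73 for ATF3, the other direction. In MM1R cells, where that library is in neither group compared, the same edgeR fit called FOSL2 (-3.17, FDR 0.016) and JUNB (-1.74, FDR 0.0263). JUND (-1.57, FDR 0.0503), JUN (-2.15, FDR 0.1045) and ATF3 (-1.49, FDR 0.406) were not called there. Without MM1R Fer-1 + RSL3 replicate 2, edgeR called 0 members in MM1R (JUNB -1.87, FDR 1) and averaged (JUNB -1.48, FDR 0.121; FOSL2 -3.13, FDR 0.169), and JUNB was lost averaged with the passage as a block (FDR 0.0621) and in MM1R with DESeq2 (FDR 0.171). Averaged over the lines, DESeq2 without this library called JUNB (FDR 0.00685) and FOSL2 (FDR 0.00428) and not JUND (FDR 0.0535), with 0.253% of genes called lower. The 3 members below all RSL3 libraries in MM1R were JUNB, FOSL1 and FOSL2 without it too, where 9.64% of genes were so.

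Against untreated cells, Fer-1 with RSL3 went with raised ATF3 in both lines and raised JUN in MM1R cells. ATF3 was 8.38-fold higher in MM1R (log2 fold change 3.07 ± 0.80, FDR 0.0251) and 8.86-fold higher in MM1S cells (3.15 ± 0.80, FDR 0.0319). JUN was 6.26-fold higher in MM1R cells (2.65 ± 0.78, FDR 0.0423), and its 6.07-fold difference in MM1S cells missed the threshold (2.60 ± 0.77, FDR 0.0665). JUN in MM1S cells was called with the passage as a block (2.48 ± 0.71, FDR 0.0336; 1.83% of genes called higher) and by DESeq2 (FDR 0.0199; 1.19%). The calls are 2 of 10 members in MM1R, where 1.75% of genes were called higher, and 1 of 10 in MM1S cells, where 0.938% were. Every Fer-1 library lay above every untreated library for JUN, FOSL2 and ATF3 in both lines (16.5% of genes in MM1R and 14.7% in MM1S cells). Without the library that went against its label, ATF3 remained called in MM1R (3.23, FDR 0.0453) and JUN did not (2.81, FDR 0.0727), with 1.15% of genes called higher, and with the passage as a block neither was called (FDR 0.11 for ATF3 and 0.121 for JUN). JUN, FOSL2, ATF3 and BATF3 then lay above all untreated MM1R libraries, as did 20.2% of genes. FOSL2 (0.57 ± 0.89 and 0.67 ± 0.88) and JUND (0.38 ± 0.48 and 0.24 ± 0.48) did not pass the test in MM1R or MM1S cells, nor did JUNB (-0.73 ± 0.41 and -0.94 ± 0.41, FDR 0.29 and 0.22). These log2 fold changes are under 1 in size, so none could be called at any FDR. The groups share 1 estimate of the spread, and FOSL2 ranged 11.1-fold and 22.2-fold in the RSL3 groups. In the groups compared here it ranged 1.05-fold to 1.33-fold. A missing call therefore does not show a return to the untreated level.

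The make-up of the family changed with treatment. Per kb of the reference transcript, JUND was the most abundant member of untreated cells at 42.8 ± 8.83 CPM per kb in MM1R and 63.5 ± 11.6 in MM1S cells, which is 42 ± 3.32% and 45.3 ± 3.47% of the family's sum (SD, n = 3). JUNB (19.8 ± 3.59% and 15.6 ± 1.15%), ATF3 (14.1 ± 1.05% and 16.1 ± 4.93%) and JUN (10.8 ± 2.13% and 12 ± 1.3%) came next, in this order in MM1R cells. In MM1S cells the mean of ATF3 was above that of JUNB, and the range of ATF3 overlapped those of JUNB and JUN. With RSL3, ATF3 (32.6 ± 8.87% and 42 ± 2.16%) was first, JUN made 32.1 ± 5.05% and 23.7 ± 4.8%, JUND 22.7 ± 8.58% and 24.8 ± 7.06%, and JUNB 5.92 ± 3.54% and 3.86 ± 1.59%. The ranges of ATF3 and JUN overlapped in MM1R but not in MM1S cells with RSL3. With Fer-1 and RSL3, ATF3 made 42.5 ± 6.57% and 49.4 ± 8.08%, and 44% on average in MM1R without the library that went against its label (37.9 and 50.1%). The lead of ATF3 depends on the transcript length used: per kb of all annotated exons, JUN came first in both RSL3 groups and in MM1R with Fer-1 and RSL3, and ATF3 came behind both JUN and JUND in MM1R with RSL3. JUND came first in untreated cells with either length. These shares are a description, with no test.

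**Figure D4:**
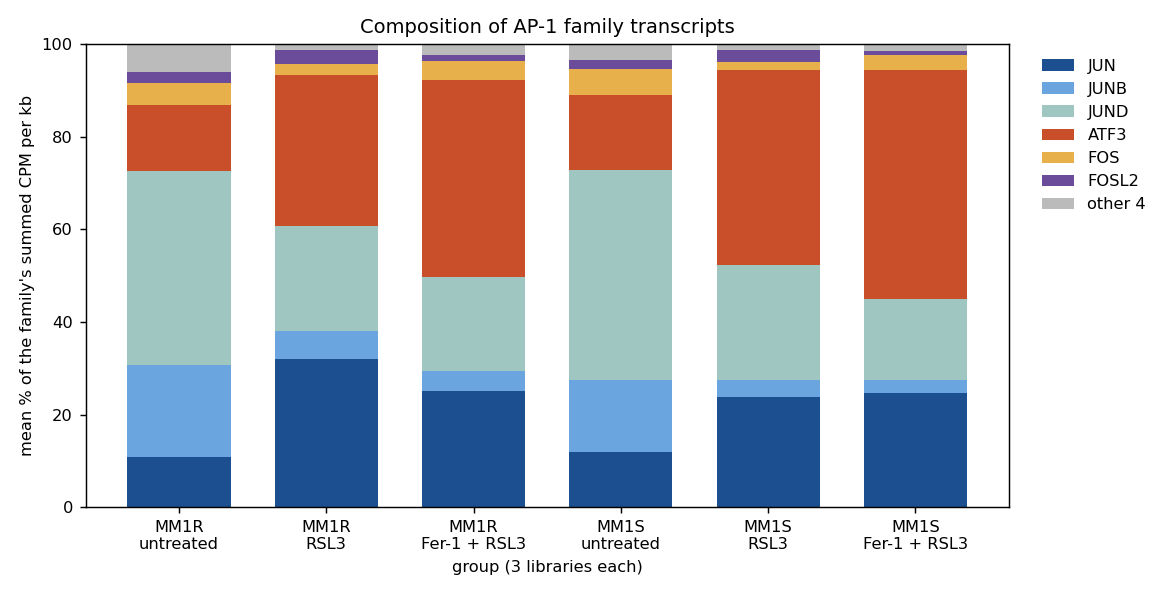
Mean share (%, y axis) of each AP-1 gene in the family's summed CPM per kb of reference transcript, for the 6 groups (x axis, 3 libraries each); the other 4 genes are FOSB, FOSL1, BATF and BATF3. JUND made 42% and 45.3% of the sum in untreated MM1R and MM1S cells and 22.7% and 24.8% with RSL3, and ATF3 reached 42.5% and 49.4% with Fer-1 and RSL3.

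The other genes of the pathway moved in part. Of 16 tested partners of the bZIP class, DDIT3, the stress factor CHOP, rose in both lines (log2 fold change 2.56 ± 0.41, FDR 0.00467, in MM1R and 2.53 ± 0.40, FDR 0.00424, in MM1S cells). CREB5 (3.96 ± 0.95, FDR 0.0287) and CREM (2.67 ± 0.71, FDR 0.0474) were called in MM1S cells. Their RSL3 libraries in MM1S lay far apart. CREM ranged from 16.6 to 266 CPM (untreated 14.1 to 17.5) and CREB5 from 2.83 to 56.3 CPM (untreated 0.622 to 2.46). Whether these calls hold without a single RSL3 library was not tested. In MM1R cells CREB5 (3.51, FDR 0.0504) just missed the threshold, and the difference between the lines was called for 0 of the 16. Averaged over the lines, 6 of the 16 rose and 0 fell, where 2.79% of all tested genes were called higher. Among the 6 were DDIT3, CREB5, CREM, JDP2 (1.88 ± 0.39, FDR 0.00397) and MAFF (1.69 ± 0.38, FDR 0.00671). MAFF ranged from 20.1 to 132 CPM in MM1S with RSL3, against 11.1 to 19.2 CPM untreated. ATF2, the usual partner of JUN at the TGACATCA element, did not pass the test (0.04 ± 0.10, FDR 0.809). DDIT3 stood at 49.2 ± 25.6 CPM with RSL3 and 58 ± 12.9 CPM with Fer-1 and RSL3 in MM1R, and in MM1S at 63.5 ± 32.8 and 71 ± 6.23 CPM. With Fer-1 and RSL3 against untreated, DDIT3 was called in both lines and JDP2 in MM1R cells (2.05 ± 0.55, FDR 0.0295). Without MM1R Fer-1 + RSL3 replicate 2, DDIT3 remained called in MM1R (2.96, FDR 0.00209) and JDP2 did not (2.16, FDR 0.054).

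Of 25 tested kinases of the JNK, p38 and ERK routes and their activators, GADD45G, an activator of the MAP3K4 kinase, rose in both lines (1.76 ± 0.39, FDR 0.0223, and 2.46 ± 0.39, FDR 0.00396). Its level was low, with a mean of 1.01 CPM untreated and 3.45 CPM with RSL3 in MM1R. In MM1S cells the means were 1.06 and 5.92 CPM, with the RSL3 libraries at 2.61 to 9.33 CPM. GADD45A and MAP3K8 were called in MM1S cells too. Averaged over the lines, GADD45A (1.15 ± 0.12, FDR 2.72e-05) and MAP3K8 (2.11 ± 0.42, FDR 0.00332) were called beside GADD45G, in all 3 of 25, and the list's median was -0.0669. In this averaged comparison, 2.79% of all tested genes were called higher. MAP3K8 ranged from 8.96 to 65.9 CPM in MM1S with RSL3, against 4.62 to 6.53 CPM untreated. With Fer-1 and RSL3 against untreated, GADD45G and GADD45A were called in MM1S cells (0.938% of genes called higher) and 0 of the 25 in MM1R cells. Of 10 activators of FOS transcription, such as SRF and the ELK factors, 0 were called in any of the RSL3 comparisons (median 0.00371 averaged over the lines). Of 10 turnover and decay factors, ZFP36 (1.33 ± 0.29, FDR 0.0062) and ZFP36L1 (1.57 ± 0.34, FDR 0.00618), which promote decay of AU-rich transcripts such as FOS, rose in the averaged comparison, and 0 were called in either line alone.

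Of 25 textbook AP-1 target genes, 11 passed the filter on low counts, and the metalloproteinases MMP1, MMP3, MMP9 and MMP13 were not among them. HMOX1, the heme oxygenase that is also a target of NRF2, rose most (5.05 ± 0.80, FDR 0.00467, in MM1R and 6.53 ± 0.86, FDR 0.00177, in MM1S cells) and stayed high with Fer-1 (965 ± 432 and 1113 ± 125 CPM, against 18.9 ± 6.04 and 11 ± 2.08 CPM untreated). The MM1R mean with Fer-1 includes the library that went against its label. Averaged over the lines, 4 of the 11 rose, with AREG, an EGF receptor ligand (4.47 ± 0.84, FDR 0.00227), DUSP1, a phosphatase that turns off JNK and p38 (2.44 ± 0.57, FDR 0.00898), and EZR, a membrane linker (1.56 ± 0.38, FDR 0.0122). The median of the 11 was 0.57, against -0.000133 over all genes, and 2.79% of all tested genes were called higher in this comparison. By line, HMOX1 alone was called in MM1R (1.06% of genes called higher) and HMOX1 and AREG in MM1S cells (1.35%). DUSP1 and EZR were called in neither line alone. Whether these target calls hold without a single RSL3 library was not tested.

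Over the 18 libraries, the genes whose log2 CPM followed JUN most closely were RHOB (Pearson r = 0.982), KLF6 (0.98), PPP1R15A (0.974), ATF3 (0.973) and ZFAND5 (0.968). For ATF3 they were PPP1R15A (0.987), ZFAND5 (0.974), JUN (0.973), ITPRIP (0.972) and BACH1 (0.971). RHOB encodes a small GTPase, KLF6 a zinc finger factor, PPP1R15A the stress-induced subunit of the phosphatase that reverses the integrated stress response, and BACH1 a heme-sensitive repressor. For FOS, the nearest gene was FOSB (0.896), then PLEKHM1P1 (0.872), HSD17B7P2 (0.863), ERO1B (0.857) and LINC01004 (0.844), all lower than the 5 values of JUN. Within the family, JUND was nearest to FOSL2 (0.944), and JUNB and ATF3 had a low r of 0.2. These coefficients describe 18 libraries that share lines, passages and treatments.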

How the data were processed

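RNA sequencing libraries of MM1R and MM1S cells (18, in 6 groups of 3) were analysed. The authors checked reads with FastQC 0.11.5, aligned them to hg19 with STAR 2.7.3a and deposited raw counts of reads per gene for 43735 genes. A second deposited table holds a signal, the counts divided by a size factor per library (0.834 to 1.08), made per the labels with DESeq2, and was used for those factors only. The counting tool, annotation and use of strand are not given in the sources used here.

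Genes with low counts were removed with filterByExpr (minimum count 10), and 14281 genes were tested. One model of 6 group means with 12 residual degrees of freedom was fitted with edgeR 4.0.16 (R 4.3.3) after TMM normalization, and groups were compared with the quasi-likelihood test and Benjamini-Hochberg adjustment (FDR). The error of a fold change is the SE of this fit. Log2 CPM used a prior count of 2. Totals of 17635438 to 19368343 counts per library limit precision for genes with few counts, and counting error is the lower bound of the error. Alternatives were DESeq2 1.42.0, other scaling, other filters, a passage block, fewer groups and leaving out libraries. The edgeR fit was tested on simulated data.

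The 10 members and all lists were chosen with earlier results of these data known. Named genes are the members, the called genes of 5 pathway lists (up to 5 per list and comparison), ATF2, JDP2 and MAFF, NR3C1, and the 5 genes most correlated with JUN, FOS and ATF3. HOOK2 and the genes set beside cell markers were added for overlap or as checks. Some genes of the lists are not reported here by name. The pairs of members compared by exact test were chosen after their values were seen.

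Replicate numbers are passages, per the labels, and pair the libraries within a line. Libraries of 1 passage deviated together from their groups, with a median r of 0.25 in MM1R (0.0338 to 0.516, 9 pairs) and 0.416 in MM1S cells (0.216 to 0.681, 9 pairs). Gene positions came from an annotation of hg19 and promoters from RefSeq (GRCh38), placed on hg19 by sequence.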

Additional observations from a re-analysis of the deposited data

How the results depend on the processing

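JUN, ATF3, FOSL2 and JUND were called for RSL3 averaged over both lines under every alternative run, with 4 to 5 members called when a library or passage was left out. FOSB was lost with only the compared groups' libraries (FDR 0.0586) and in 14 of the 24 fits without a library or passage. Calls by line were less firm. Leaving out libraries or passages gave 0 to 5 members for RSL3 in MM1R, 0 to 4 in MM1S, 0 to 2 for Fer-1 + RSL3 against RSL3 in MM1R and 0 to 3 averaged, and 0 to 2 for Fer-1 + RSL3 against untreated in either line. With only the compared groups' libraries, RSL3 in MM1S gave 0 calls and Fer-1 + RSL3 against untreated 2. The paired fit, with the passage as a replicate block, gave 2 calls for Fer-1 + RSL3 against untreated in MM1S and 1 for Fer-1 + RSL3 against RSL3 averaged, turned FOS in MM1S for Fer-1 + RSL3 against RSL3 to 0.0095, dropped FOSL2 for RSL3 in MM1S, and changed no other call. DESeq2 gave 1 call for Fer-1 + RSL3 against RSL3 in MM1R, 3 averaged, and 2 for Fer-1 + RSL3 against untreated in MM1S. With no filter on low counts, 27858 genes were tested, the median prior degrees of freedom were 1730 in place of 4.66, and members called were 7 and 6 for RSL3 (MM1R, MM1S), 6, 5 and 6 for Fer-1 + RSL3 against RSL3 (MM1R, MM1S, averaged) and 4 and 2 for Fer-1 + RSL3 against untreated, where 0.481 to 1.86% of genes were called.

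The authors' size factors, the fits without a passage, the block and DESeq2 fits without MM1R Fer-1 + RSL3 replicate 2 and the wider line marker rule were chosen after seeing the data. Signs turned in some fits without a library or passage; the cause was not tested. For RSL3 in MM1S, JUNB ranged from -0.70 to 0.58, FOS from -0.98 to 2.38 and FOSB from -0.84 to 4.38. For Fer-1 + RSL3 against RSL3, FOS ranged from -1.87 to 0.18 and FOSB from -2.26 to 0.15 in MM1R, JUN from -1.72 to 0.64, FOS from -1.32 to 1.76, FOSB from -3.30 to 1.84 and ATF3 from -1.48 to 0.90 in MM1S, and FOS from -1.31 to 0.62 and FOSB from -2.43 to 0.38 averaged. FOS in MM1R for Fer-1 + RSL3 against untreated ranged from -0.27 to 2.39. With 3 libraries a group, the main edgeR fit (all libraries, low counts filtered) detected no member between RSL3 and Fer-1 + RSL3 within a line after adjustment. Some of the other edgeR fits did, as given above. FOSL1 and BATF3 rest on 2 to 34 counts per library.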
